A study of Drosophila melanogaster with 6 samples.

Results

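The 9 genes examined are chaperone genes of Drosophila melanogaster flight muscle. They are the small heat shock protein genes Hsp22, Hsp23, Hsp26, Hsp27 and l(2)efl, the Hsp90 gene Hsp83, the constitutive Hsp70 gene Hsc70-4, the myosin chaperone gene unc-45 and the co-chaperone gene stv. The members were taken by symbol and joined by gene identifier to the counts, which gave 9 of 17611 genes, and all 9 were among the 9546 genes that passed the filter on low counts. RNA-seq was made from indirect flight muscles, the fibrillar muscles that power flight, dissected from pupae kept at 25°C, at 72 hours after puparium formation (APF). In the control, Act88F-Gal4, whose promoter comes from the flight muscle actin gene, drove UAS-GFPnls (UAS-GFP below, 3 samples), and in the other genotype the same driver expressed UAS-Antpnls, a transgene of the Hox gene Antp (UAS-Antp below, 3 samples). Both groups therefore carry the driver and overexpress a transgene, and each sample pooled the muscles of 6 to 8 pupae. The age of the pupae and the temperature were the same in both groups.

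The UAS-GFP samples are called replicates 1, 2 and 3 and hold 64485309, 47460809 and 59754817 counts. The columns of the UAS-Antp samples could not be matched to replicate numbers, so these samples are named by their totals of 69673609, 77781458 and 63217976 counts, shortened below to the first, the second and the third UAS-Antp sample, in that order. The labels call the samples independent, whereas the methods of the study describe the RNA-seq as technical replicates of a single biological sample, so the p-values below measure only the spread between these samples. Antp had 33 to 70 counts in the UAS-GFP samples and 517985 to 1092524 in the UAS-Antp samples, where reads of the transgene are included. All 10 flight muscle markers were above 3 counts in every sample, and their summed level was 354744 to 395936 CPM (counts per 1000000 of a library total scaled with edgeR's TMM factors) with UAS-GFP and 61162 to 73344 CPM with UAS-Antp.

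Chaperones help proteins to fold and keep unfolded ones from aggregating. Hsp70 proteins bind and release short unfolded stretches with the help of J-domain and BAG-domain partners, Hsp90 acts later on a narrower set of clients, and small heat shock proteins hold unfolded proteins without using ATP. In muscle, UNC-45 works with Hsp90 to fold the myosin motor domain, and Starvin, the product of stv and the fly relative of BAG3, works with Hsc70-4 and small heat shock proteins at the Z-disc, where damaged filamin is handed over for degradation.

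Of the 9 members, Hsp22, Hsp83 and unc-45 were lower with UAS-Antp, none was higher, and 6 did not pass an adjusted p of 0.001 (edgeR's quasi-likelihood F-test, adjusted across the tested genes by the Benjamini-Hochberg method). At an unadjusted p under 0.05, 3 members were higher and 5 lower, and DESeq2 called 1 higher and 4 lower. Of all genes DESeq2 called 4264, 1967 as higher and 2297 as lower. No share of all genes was taken at the unadjusted p, for the members or for the lists below. Among all genes tested 35.6% passed in edgeR at an adjusted p of 0.001, 16.3% as higher and 19.3% as lower. The share of the members that passed (3 of 9) was therefore close to that background. The samples of both groups did not overlap in CPM for 6 of 9 members, against 68.3% of all genes tested. The median log2 fold change of the members was -0.38, and that of all genes tested was 0.17. In these bulk samples, fewer cells of a type and less RNA per cell cannot be told apart.

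The direction of Hsp26 and Hsc70-4, and whether several other members passed, rests on how the libraries were scaled. The TMM factors were 0.609 to 0.674 with UAS-GFP and 1.53 to 1.60 with UAS-Antp, and scaling by library totals raised the median log2 fold change of all genes from 0.17 to 1.48, a shift of 1.32. With library totals 59.2% of genes passed, 4971 as higher (52.1%) and 685 as lower (7.18%), compared with 1557 higher and 1840 lower with TMM. For that reason the log2 fold change is also given relative to the median of all genes, which is nearly the same under either scaling. For unc-45, Hsp83 and Hsc70-4 it stands with their values below. With TMM it was -5.43 for Hsp22, -1.35 for Hsp26, 0.04 for l(2)efl, 0.32 for stv, 0.65 for Hsp23 and 1.21 for Hsp27.

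**Figure D1:**
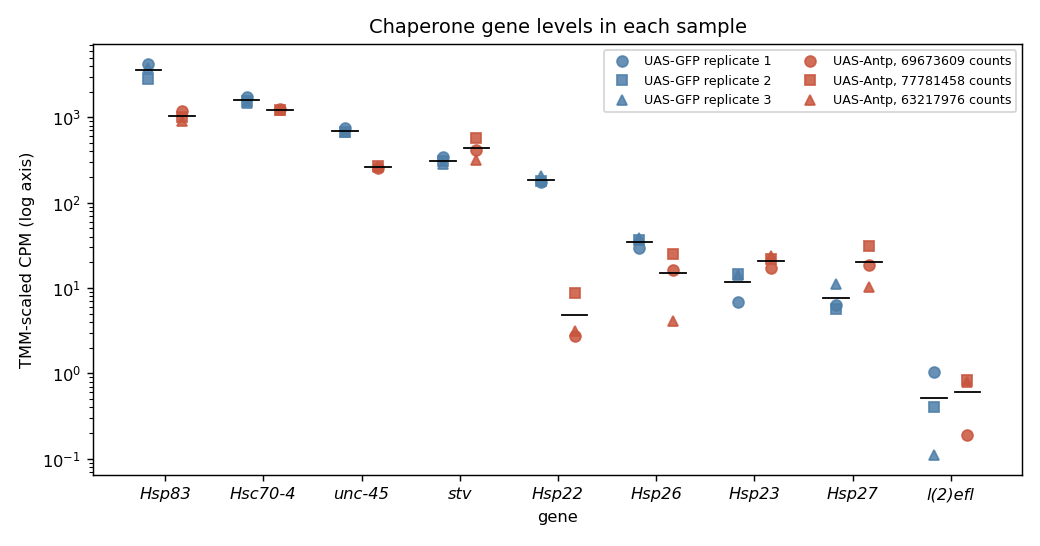
TMM-scaled level (CPM, log axis) of each of the 9 chaperone genes in the 3 UAS-GFP and the 3 UAS-Antp samples, one point per sample with the group mean as a line. Hsp22 lies between 175 and 204 CPM with UAS-GFP and between 2.70 and 8.65 CPM with UAS-Antp, whereas the points of l(2)efl, Hsp27 and stv overlap between the groups.

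The myosin chaperone system was examined first. unc-45 (FBgn0010812, chromosome 3R, plus strand, positions 8033301 to 8037403 on dm6) encodes the UCS-domain protein that binds unfolded myosin heads. It stood at 741, 675 and 680 CPM in the UAS-GFP replicates and at 252, 265 and 260.05 CPM in the UAS-Antp samples, in the order given above. Each UAS-Antp sample was below each UAS-GFP sample, and the UAS-Antp samples lay closer together than those of most genes, with a ratio of 1.05 between the highest and the lowest. The mean fell from 699 ± 36.9 to 259 ± 6.85 CPM (SD, n = 3 each), 2.70-fold, with a log2 fold change of -1.43 (SE 0.098, adjusted p = 5.73e-07 in edgeR). It was -1.60 relative to the median of all genes. With library totals the value was -0.11 (adjusted p = 0.306 in edgeR), which no longer passed.

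Hsp83 (FBgn0001233, 3L, plus strand, 3192969 to 3197059) encodes the only cytosolic Hsp90 of the fly. Its level was 4254, 2830.44 and 3761 CPM with UAS-GFP and 1172, 1019 and 907 CPM with UAS-Antp. The groups did not overlap, and the UAS-GFP samples differed by up to 1.503-fold among themselves. The mean fell 3.50-fold, from 3615 ± 723 to 1033 ± 133 CPM (SD, n = 3 each), a log2 fold change of -1.81 (SE 0.17, adjusted p = 5.27e-06 in edgeR) and -1.98 relative to the median of all genes. Library totals gave -0.48 (adjusted p = 0.00645 in edgeR), past the threshold no longer.

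Their main client in this muscle, the myosin heavy chain gene Mhc, also fell, from 112084 ± 8153 to 22924 ± 1533 CPM (SD, n = 3 each), with a log2 fold change of -2.29 (SE 0.13, adjusted p = 1.30e-07 in edgeR). Ratios between genes of one library, per kilobase of exon, do not depend on the scaling. unc-45 stood at 14.2 ± 0.587 per 1000 of Mhc with UAS-GFP and 25.8 ± 2.41 per 1000 in UAS-Antp (SD, n = 3 each), so the chaperone transcript was 1.82-fold higher relative to that of its client. Hsp83 stood at 98.1 ± 12.9 and 138 ± 17.3 per 1000 of Mhc (SD, n = 3 each), 1.41-fold apart. Relative to the median of all genes Mhc was at -2.46, below both unc-45 and Hsp83. A gene that stayed at the median therefore rose more per Mhc than either chaperone gene, and both ratios reflect the larger fall of Mhc. The ratio of Hsp83 to unc-45 was 6.94 ± 1.13 with UAS-GFP and 5.38 ± 0.810 with UAS-Antp (SD, n = 3 each), and its ranges overlapped. A two-sided exact permutation test of 3 against 3 samples cannot go below p = 0.1, so these ratios are given without a test.

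**Figure D2:**
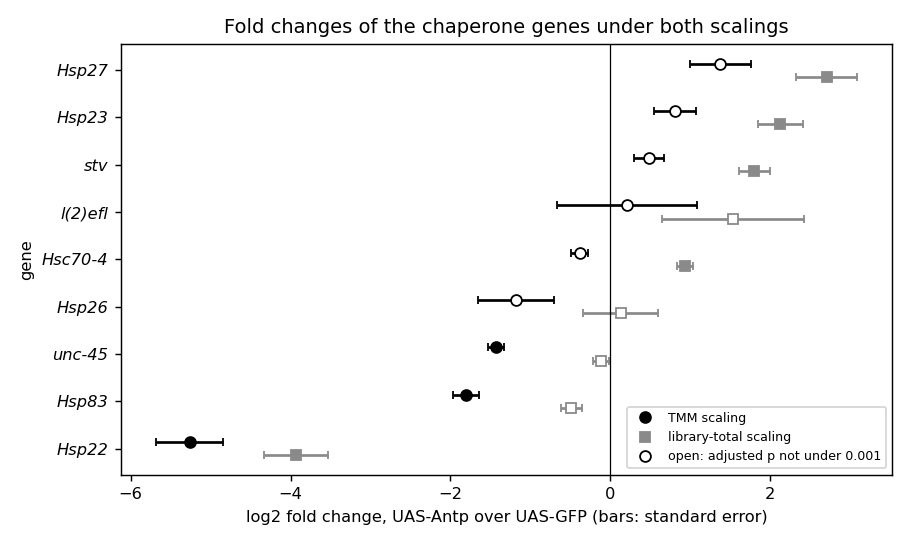
Difference between UAS-Antp and UAS-GFP (x axis, log2 fold change with SE) for the 9 chaperone genes, as circles under TMM scaling and squares under library totals, open where the adjusted p was not under 0.001. All values move up by about 1.32 with library totals, and Hsc70-4 and Hsp26 change sign, from -0.38 to 0.93 and from -1.18 to 0.13.

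Hsc70-4 (FBgn0266599, 3R, plus strand, 15242687 to 15246614) encodes the main constitutive cytosolic Hsp70. It was measured at 1729, 1558 and 1476 CPM with UAS-GFP and at 1238, 1207 and 1209.55 CPM with UAS-Antp. The groups did not overlap, and only 0.818% of the genes tested had UAS-Antp samples closer together (highest to lowest, 1.03). The log2 fold change of -0.38 (SE 0.10, adjusted p = 0.00880 in edgeR) did not pass, and with library totals it was 0.93 (adjusted p = 9.40e-06 in edgeR), a call in the other direction. Relative to the median of all genes it was -0.55. Hsc70-4 per 1000 of Mhc was 47.3 ± 3.42 with UAS-GFP and 178 ± 10.6 with UAS-Antp (SD, n = 3 each), 3.76-fold higher. A gene at the median of all genes rose more than this per Mhc, since Hsc70-4 lay below that median.

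Since Hsp83 and Hsc70-4 are measured in the same libraries, their order can be read without scaling. The ratio of Hsp83 to Hsc70-4 per kilobase was 2.09 ± 0.367 with UAS-GFP and 0.777 ± 0.0906 with UAS-Antp (SD, n = 3 each), so the Hsp90 transcript was above the Hsp70 transcript in the control and below it with UAS-Antp, in all samples of each group.

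stv (FBgn0086708, 3L, plus strand, 13477541 to 13483515) had 340, 304 and 284 CPM with UAS-GFP and 409, 574 and 316 CPM with UAS-Antp. The third UAS-Antp sample lay within the range of the controls, and the second was the highest. The mean was 309 ± 28.4 and 433 ± 131 CPM (SD, n = 3 each), with a log2 fold change of 0.49 (SE 0.19, adjusted p = 0.0492 in edgeR) that did not pass. Library totals gave 1.80 (adjusted p = 1.02e-05 in edgeR). The ratio of stv to Hsc70-4 per kilobase was 0.144 ± 0.00159 with UAS-GFP and 0.263 ± 0.0811 with UAS-Antp (SD, n = 3 each), and its ranges did not overlap.

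Other parts of the chaperone-assisted degradation system of the Z-disc were read from lists of chaperone genes. STUB1, the ubiquitin ligase known as CHIP, rose from 12.8 ± 1.29 to 44.0 ± 2.93 CPM (SD, n = 3 each), with a log2 fold change of 1.78 (SE 0.13, adjusted p = 7.21e-07 in edgeR). CG14207, a small heat shock protein gene related to HspB8 of mammals, fell from 351 ± 18.4 to 190 ± 17.1 CPM (SD, n = 3 each). Its log2 fold change was -0.89 (SE 0.11, adjusted p = 4.35e-05 in edgeR), and it was 0.42 (adjusted p = 0.00512 in edgeR) with library totals. The filamin gene cher, whose protein the system clears, stood at -0.19 on the log2 scale (adjusted p = 0.258 in edgeR). With library totals it was at 1.12 (adjusted p = 1.87e-05 in edgeR) and passed as higher.

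Hsp22 was the member with the largest difference. It encodes a small heat shock protein of the mitochondrial matrix and lies on 3L, plus strand, positions 9372931 to 9374964 on dm6 (FBgn0001223). It was counted 6977, 5745 and 7421 times in the UAS-GFP replicates and 289, 1078 and 316 times in the UAS-Antp samples, or at 175, 180 and 204 CPM against 2.70, 8.65 and 3.13 CPM. The groups lay far apart, and the second UAS-Antp sample was the highest of its group. The mean fell 38.4-fold, from 186 ± 15.6 to 4.83 ± 3.32 CPM (SD, n = 3 each), with a log2 fold change of -5.26 (SE 0.42, adjusted p = 1.91e-06 in edgeR). Hsp22 passed as lower with library totals too, at -3.94 (adjusted p = 5.53e-06 in edgeR), and was the only member called lower under both scalings.

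The value of Hsp22 is shared with a second gene. All 1900 exon bases of Hsp22 lie in CG4456, an older name of which is Hsp67Bb and whose exons span 2109 bases on the same strand. The counts of the pair were identical in 5 of 6 samples and were 1078 and 1082 in the other, so the genes cannot be told apart here, and CG4456 is given no value of its own below. CG4456 and the genes Hsp67Ba and Hsp67Bc were picked for naming after their values were seen.

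The members Hsp23, Hsp26 and Hsp27 lie in the same chromosomal cluster and did not pass the test. Hsp26 (FBgn0001225, minus strand, 9376418 to 9377427) encodes a cytosolic protein and was at 29.4, 36.0 and 38.03 CPM with UAS-GFP and 16.2, 25.2 and 4.12 CPM with UAS-Antp. The UAS-Antp samples were all below the controls and spread 6.11-fold among themselves, which is more than in 95.5% of the genes tested. The log2 fold change was -1.18 (SE 0.48, adjusted p = 0.0539 in edgeR), which did not pass, and 0.13 (adjusted p = 0.803 in edgeR) with library totals. Hsp23 (FBgn0001224, plus strand, 9381882 to 9382765), also cytosolic, was at 6.84, 14.5 and 14.3 CPM with UAS-GFP and 17.3, 21.8 and 23.4 CPM with UAS-Antp. All UAS-Antp samples lay above the controls, with a log2 fold change of 0.82 (SE 0.26, adjusted p = 0.0208 in edgeR) that did not pass and of 2.13 (adjusted p = 4.58e-05 in edgeR) with library totals.

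Hsp27 (FBgn0001226, plus strand, 9384063 to 9385694) encodes a small heat shock protein of the nucleus. It was at 6.31, 5.69 and 11.1 CPM with UAS-GFP and 18.5, 31.1 and 10.3 CPM with UAS-Antp. The third UAS-Antp sample lay below the highest control, so the groups overlapped. The log2 fold change was 1.38 (SE 0.38, adjusted p = 0.0101 in edgeR), which did not pass with TMM, and 2.71 (adjusted p = 7.22e-05 in edgeR) with library totals. Within a library, the ratio of Hsp22 to Hsp23 per kilobase was 8.11 ± 3.31 with UAS-GFP and 0.106 ± 0.0677 with UAS-Antp (SD, n = 3 each), so the order of these 2 genes was opposite in the 2 genotypes.

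The fifth small heat shock protein gene, l(2)efl (FBgn0011296, 2R, minus strand, 23684651 to 23685543), lies outside the cluster and encodes a cytosolic relative of the alpha-crystallins. It was counted 41, 13 and 4 times with UAS-GFP and 20, 103 and 79 times with UAS-Antp, at or below 1.03 CPM in every sample. The counts spread 9.34-fold in CPM within UAS-GFP and overlapped between the groups. The log2 fold change of 0.21 (SE 0.87, adjusted p = 0.854 in edgeR) changed sign with the sample left out, from -0.28 to 1.22. No difference was detectable with counts this few and this spread.

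**Figure D3:**
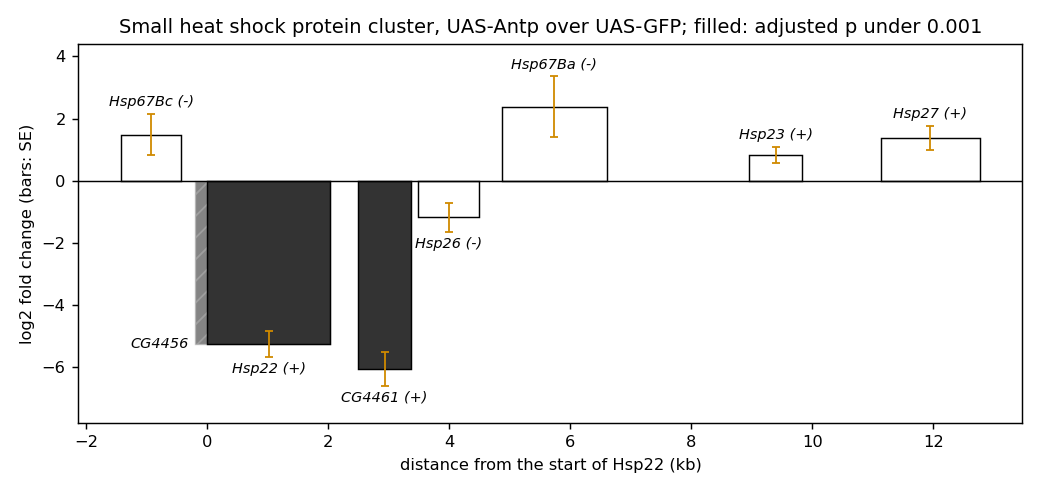
Difference between UAS-Antp and UAS-GFP (y axis, log2 fold change with SE) for the tested genes of the small heat shock protein cluster on chromosome 3L, drawn as bars over the extent of each gene, against the distance from the start of Hsp22 in kilobases, with the strand beside each name. Filled bars, Hsp22 with the overlapping CG4456 and CG4461, had an adjusted p under 0.001, at -5.26 and -6.07, and the remaining genes run from -1.18 for Hsp26 to 2.38 for Hsp67Ba.

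The cluster spans 14.2 kb of 3L, from 9371511 to 9385694, and holds 9 listed genes, 8 of which were tested, with Hsp22 and CG4456 listed and tested as separate genes. The other gene that fell in it was CG4461, a small heat shock protein gene between Hsp22 and Hsp26, with 1150, 849 and 1097 counts with UAS-GFP and 6, 65 and 70 in the UAS-Antp samples. This is a log2 fold change of -6.07 (SE 0.56, adjusted p = 5.33e-06 in edgeR). Hsp67Bc, at the other side of Hsp22, and Hsp67Ba, between Hsp26 and Hsp23, also encode small heat shock proteins. They were counted 8 to 14 and 2 to 8 times with UAS-GFP and 46 to 203 and 17 to 181 times with UAS-Antp. Their log2 fold changes of 1.48 (SE 0.67, adjusted p = 0.0814 in edgeR) and 2.38 (SE 0.98, adjusted p = 0.0576 in edgeR) did not pass. In the list of other small heat shock protein genes, 0 of 4 tested passed as higher and 2 as lower (CG4461 and CG14207). The shares of all genes tested were 16.3% and 19.3%. At an unadjusted p under 0.05 the list had 1 higher and 2 lower, and by DESeq2 0 and 2. Of the exon bases of Hsp67Ba, 75.9% are covered by an antisense RNA gene, and the counting was by strand. Hsp22 and CG4461 are neighbours on the plus strand, and Hsp23 and Hsp27, also on that strand, had log2 fold changes above 0.

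Some of these genes varied widely within UAS-Antp. The ratio of the highest to the lowest sample was 1.31 for the median gene tested. It was 6.11 for Hsp26, 4.42 for l(2)efl, 3.20 for Hsp22, 3.03 for Hsp27 and 1.82 for stv. For Hsp23, Hsp83, unc-45 and Hsc70-4 it was 1.36, 1.29, 1.05 and 1.03. For Hsp26, Hsp27 and stv the second UAS-Antp sample was the highest and the third the lowest. For Hsp22 and l(2)efl the first was the lowest. The order of Hsp26, Hsp27 and stv was noticed in their values. It was held by 3 of 9 members (33.3%), by 12 of 72 chaperone genes, these 3 included (16.7%), and by 12.7% of all genes tested. With more than 1.5-fold between the highest and the lowest sample, it was held by 9 of the 72 (12.5%) and by 5.03% of all genes tested. Since the order was picked from these genes, the shares are no test of it.

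Besides those 3 members, the chaperone and heat-inducible genes in this order with more than 1.5-fold between the highest and the lowest sample were Hsp68 and Hsp70Aa and Hsp70Ab, which encode heat-inducible Hsp70 proteins, the J-domain genes DnaJ-1 and CG7130, and lncRNA:Hsromega, the heat-inducible noncoding RNA of the omega speckles. They were chosen after their values were seen. CG7130 had only 4, 15 and 2 counts in the UAS-Antp samples, near the floor of 3 counts, so its order is uncertain. Its log2 fold change of -3.67 (adjusted p = 0.00542 in edgeR) did not pass. Hsp68 was at 0.927, 0.626 and 0.632 CPM with UAS-GFP and at 28.1, 72.6 and 7.89 CPM with UAS-Antp. It rose with a log2 fold change of 5.62 (SE 0.76, adjusted p = 1.02e-04 in edgeR), passed in 5 of 6 fits that left out 1 sample, and had an adjusted p of 0.00128 in the other. lncRNA:Hsromega stood at 80.1, 91.8 and 69.1 CPM and at 225, 321 and 82.7 CPM, with a log2 fold change of 1.38 (SE 0.38, adjusted p = 0.00937 in edgeR) that did not pass. DnaJ-1, which encodes a J-domain partner of Hsp70, stood at 104, 110.06 and 133 CPM and at 255, 291 and 118 CPM, with 0.93 (SE 0.27, adjusted p = 0.0134 in edgeR). lncRNA:Hsromega and DnaJ-1 passed with library totals (2.69 and 2.25, adjusted p = 9.11e-05 and 2.29e-05 in edgeR), without the third UAS-Antp sample (1.77 and 1.24, adjusted p = 2.76e-05 and 5.86e-05) and without the filter on low counts (1.38 and 0.92), and DnaJ-1 also with DESeq2 (0.87, adjusted p = 0.000832). The third UAS-Antp sample lay within the UAS-GFP range for DnaJ-1 and lncRNA:Hsromega. Hsf, which encodes the heat shock transcription factor, was at 24.6 and 23.3 CPM on average, with a log2 fold change of -0.08 (adjusted p = 0.653 in edgeR). With library totals Hsf was at 1.24 (adjusted p = 2.44e-05 in edgeR) and passed as higher. The second UAS-Antp sample also had the most genes above 3 counts, 11634, against 9975 in the first and 10702 in the third. What sets the samples of UAS-Antp apart was not tested.

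**Figure D4:**
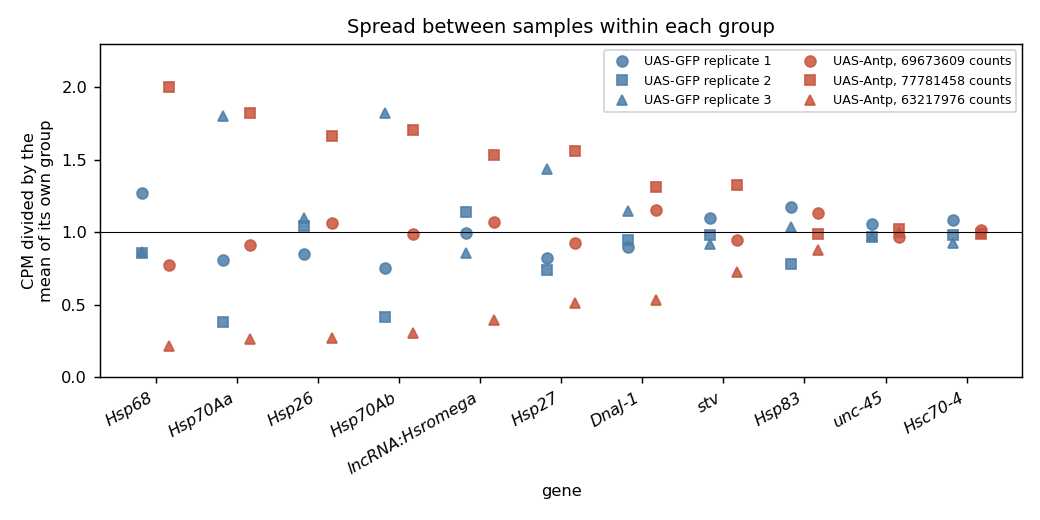
CPM of each sample divided by the mean of its own group (y axis) for 11 chaperone and heat-inducible genes (x axis), 1 point per sample. Within UAS-Antp the points of Hsp68 and Hsp26 lie far apart (highest to lowest 9.19 and 6.11) with the squares on top and the triangles at the bottom, and those of unc-45 and Hsc70-4 (1.05 and 1.03) nearly coincide.

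The other chaperone genes were read from lists by family, with no test between the families. Of all genes tested 16.3% passed as higher and 19.3% as lower, and 52.1% and 7.18% with library totals. In the cytosolic Hsp70 family 2 of 10 tested genes rose and 1 fell (6 and 1 with library totals), with a median log2 fold change of 0.25, against 0.17 for all genes. The gene that fell was Hsc70-1, a constitutive Hsp70 gene, at 1243, 1099.82 and 1253 CPM with UAS-GFP and 34.7, 37.0 and 35.02 CPM with UAS-Antp, with a log2 fold change of -5.07 (SE 0.12, adjusted p = 1.42e-09 in edgeR). The ratio of Hsc70-1 to Hsc70-4 per kilobase was 0.758 ± 0.0792 with UAS-GFP and 0.0292 ± 0.00136 with UAS-Antp (SD, n = 3 each), so the Hsc70-1 transcript was close to that of Hsc70-4 with UAS-GFP and far below it with UAS-Antp. Hsc70-2, another constitutive copy, was counted 0, 4 and 0 times with UAS-GFP and 1256, 2059 and 1162 times with UAS-Antp (adjusted p = 5.14e-07 in edgeR).

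Among the partners of Hsp70 and Hsp90, 5 of 11 tested genes passed in each list, against 35.6% of all genes tested. Of 11 Hsp40 co-chaperone genes tested, 1 rose and 4 fell (7 and 1 with library totals, 2 and 6 by DESeq2, median log2 fold change with TMM -0.55). The J-domain gene jdp rose by 3.40 on the log2 scale (SE 0.14, adjusted p = 1.99e-08 in edgeR), while DnaJ-60, which shares all its exon bases and counts with CG42568, fell by 2.62, and Tpr2, whose protein carries a J domain and TPR repeats, fell by 1.35 (-0.02 with library totals, adjusted p = 0.873 in edgeR). Of 11 Hsp90 co-chaperone genes, 2 rose and 3 fell (8 and 0 with library totals, 2 and 4 by DESeq2, median with TMM -0.25). Besides STUB1, spag rose by 1.02, while Stip1, the adaptor between Hsp70 and Hsp90, fell by 1.04, and CG1416, the activator Aha1, by 0.92. Both of the latter had values above 0 with library totals (0.27 and 0.39, adjusted p = 0.0318 and 0.0143 in edgeR), and spag passed in 4 of 6 fits without 1 sample.

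TRiC and prefoldin are the complexes that fold actin and tubulin. Of the 8 subunit genes of the TRiC chaperonin 3 rose and 0 fell (median log2 fold change 0.48), among them CCT1 by 1.27 and CCT5 by 0.86. Of all genes tested 35.6% passed, 16.3% as higher and 19.3% as lower. Of 6 prefoldin genes, whose complex hands clients to TRiC, 0 rose and 5 fell (median -1.25), with log2 fold changes of -1.87 for Pfdn4 and -1.399 for Pfdn6. At an unadjusted p under 0.05, 6 TRiC genes were higher and 0 lower, and 1 prefoldin gene was higher and 5 lower, and DESeq2 called 4 and 0 and then 1 and 5. With library totals 8 TRiC genes and 2 prefoldin genes passed as higher and none as lower, against 52.1% and 7.18% of all genes tested. The client actin gene of the flight muscle, Act88F, fell from 75391 ± 4627 to 1400 ± 247 CPM (SD, n = 3 each), by 5.75 on the log2 scale (adjusted p = 4.91e-09 in edgeR).

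In the organelle lists all tested genes passed in a single direction, by edgeR and by DESeq2. Among all genes, edgeR called 16.3% higher and 19.3% lower. All 5 tested mitochondrial chaperone genes fell (median log2 fold change -1.33), with Hsc70-5, the mitochondrial Hsp70, from 1777 ± 51.8 to 379 ± 28.3 CPM (SD, n = 3 each), a log2 fold change of -2.23 (adjusted p = 4.49e-08 in edgeR), and its exchange factor Roe1 at -1.66. With library totals 1 of 5 passed as lower, Hsc70-5 at -0.92, against 7.18% of all genes tested. All 6 chaperone genes of the endoplasmic reticulum rose, by 1.43 to 3.56 (median 2.399). All 6 passed as higher with library totals, as did 52.1% of all genes tested. Calr, the calreticulin gene, rose from 35.8 ± 3.74 to 422 ± 36.3 CPM and Hsc70-3, which encodes BiP, from 61.2 ± 1.79 to 686 ± 151 CPM (SD, n = 3 each; log2 fold changes 3.56 and 3.49, adjusted p = 1.05e-08 and 4.08e-08 in edgeR). Within a library, the ratio of Hsc70-3 to Hsc70-4 per kilobase was 0.0293 ± 0.00168 with UAS-GFP and 0.425 ± 0.0877 with UAS-Antp (SD, n = 3 each), 14.5-fold apart.

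**Figure D5:**
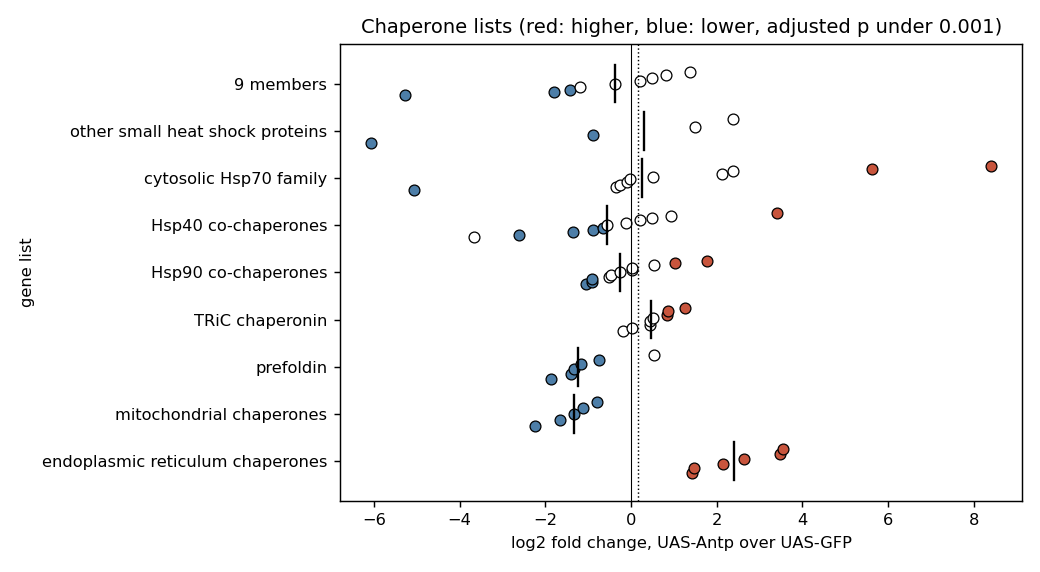
Difference between UAS-Antp and UAS-GFP (x axis, log2 fold change, TMM scaling) for every tested gene of the members and of 8 chaperone lists (y axis), one point per gene, filled where the adjusted p was under 0.001. Short lines mark the median of each list and the dotted line the median of all genes tested, 0.17. All 6 endoplasmic reticulum chaperone genes lie between 1.43 and 3.56, and all 5 mitochondrial ones lie between -2.23 and -0.80.

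Per kilobase of exon, the order of the members in UAS-GFP was Hsp83 (1221 CPM per kb), Hsc70-4 (584), unc-45 (175), Hsp22 (98.0), stv (84.3), Hsp26 (34.1), Hsp23 (13.4), Hsp27 (4.71) and l(2)efl (0.694). Only Hsp22 and stv overlapped in their ranges over the 3 samples. In UAS-Antp the order was Hsc70-4 (448 CPM per kb), Hsp83 (349), stv (118), unc-45 (64.9), Hsp23 (23.6), Hsp26 (15.0), Hsp27 (12.2), Hsp22 (2.54) and l(2)efl (0.807), and Hsp26 overlapped with Hsp23, with Hsp27 and with Hsp22. Hsp22 thus went from the fourth place to the eighth. Together the members took 0.377% to 0.451% of all counts with UAS-GFP and 0.437% to 0.505% with UAS-Antp.

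The genes most like each member were found by the root mean square difference of gene-centred log2 CPM over the 6 samples, among 9545 genes. For unc-45 they were CG10132 (0.048), CG5916 and eRF1, for Hsc70-4 CG12877 (0.044), CG42507 and Trl, and for Hsp83 UGP (0.106), Pif1A and Pif1B. For stv they were CG16868 (0.064), Ythdc1 and DIP1, and for Hsp23 Lsd-1 (0.105), eEFSec and CG11367. Hsp22 had no close gene beside CG4456, the next being lncRNA:CR44331 at 0.240, and the nearest genes to Hsp26, Hsp27 and l(2)efl were lncRNA:CR43909 (0.145), Rsph1 (0.310) and CG7381 (0.282).

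Markers of other cell types were measured beside these results. The summed level was 51.5 to 58.4 CPM with UAS-GFP and 52.0 to 82.5 CPM with UAS-Antp for 7 of 7 neuronal markers above 3 counts, 33.7 to 34.8 and 33.0 to 68.3 CPM for 6 of 7 hemocyte markers, and 287 to 534 and 349 to 546 CPM for 5 of 6 fat body markers. All 4 matched tracheal markers fell, with a summed level of 657 to 706 CPM and 143 to 214 CPM, and 3 tendon markers summed to 25.3 to 35.9 and 8.76 to 18.5 CPM. Myoblast markers, with 2 of 3 above the floor, summed to 30.9 to 33.1 and 18.5 to 23.02 CPM. Testis markers were at 0 CPM with UAS-GFP and at most 0.421 CPM with UAS-Antp, and can, aly and nht were at 0 in all samples. Whether these cells have a part in the values of the chaperone genes was not tested.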

How the data were processed

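The counts deposited by the authors are raw reads per gene, assigned by strand with featureCounts to the exons of 17611 genes of the dm6 genome, FlyBase annotation 6.42, per the file headers and the submitters' processing notes. For 8 of 9 members the positions are the same in Ensembl release 115. The remaining member, unc-45, was not found there under its identifier, so its position was not checked. The authors' table of their own comparison was used for gene symbols only (17582 genes, and 29 from a name table), and its mean counts, fold changes and p-values were not used. Of the genes with 5 to 50 counts, 75.0% to 81.0% had an even count per library, so both mates of a pair appear to be counted and fragments are fewer than counts. Intervals are over samples, and the floor of 3 counts covers counting error only.

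Genes were filtered with filterByExpr, scaled with TMM and tested with edgeR 4.0.16 in R 4.3.3 by its quasi-likelihood F-test, calling genes at a Benjamini-Hochberg adjusted p under 0.001. The procedure was tested on simulated data. DESeq2 1.42.0, other scalings, filters and thresholds, and each sample left out were the alternatives. CPM is per 1000000 of the TMM-scaled total, and levels between genes were divided by exon length. Named were all members, the clients, Antp, the 2 largest rises and falls per list among genes past the threshold, and the 3 most alike genes per member. The members and lists were chosen with earlier results of these data known.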

Additional observations from a re-analysis of the deposited data

How the results depend on the processing

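Hsp22, Hsp83 and unc-45 were called lower in every fit with DESeq2's size factors, upper quartile factors, TMM factors without the 50 most abundant genes, no filter, a minimum of 1 CPM in 3 samples, DESeq2, and each sample left out. Under library totals only Hsp22 of these was. The members called then numbered 5 (Hsp22 lower, and Hsp23, Hsp27, Hsc70-4 and stv higher). DESeq2 also called 5, adding Hsp27 as higher (adjusted p = 0.000317) and Hsc70-4 as lower (adjusted p = 0.000163), no filter called 4, adding Hsp27, and an adjusted p under 0.05 called 7. Without 1 sample each, 3 members were called in every fit. Of all genes tested, 3397 passed, 5656 with library totals, 5807 at 0.05, and 2758 to 3043 without 1 sample. Among 41 named genes, library totals changed the sign of Hsp26 (0.13), Hsc70-4 (0.93), CG14207 (0.42), Stip1 (0.27), CG1416 (0.39), Hsf (1.24) and cher (1.12). Of these 41 genes 9 lost their call and 11 gained one. Some list genes that are not named changed sign too. The cause is the scaling itself, which moves the median of all genes by 1.32. Leaving out 1 sample moved l(2)efl from -0.28 to 1.22, with -0.28 without UAS-GFP replicate 3, -0.09 without the second UAS-Antp sample and -0.02 without the third, and Hsf from -0.18 to 0.0054. Hsp26 ran from -1.76 to -0.73, Hsp27 from 0.91 to 1.72 and stv from 0.23 to 0.67. l(2)efl has no value under the 1 CPM minimum. No paired analysis was possible because the labels number the UAS-GFP samples 1 to 3 and the UAS-Antp samples 4 to 6, and the count columns, numbered 1 to 3 in both groups, are tied by no label to those of UAS-Antp. l(2)efl had only 4 to 103 counts per sample.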

Other observations

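The heat-inducible Hsp70 genes exist as 6 near-identical copies, between which uniquely mapped reads cannot be shared reliably, so the split is uncertain. Hsp70Bb held 77.9% to 90.0% of their summed CPM and was at 1425, 2060 and 3170 CPM with UAS-GFP and 3261, 3537 and 2759 CPM with UAS-Antp, with a log2 fold change of 0.52 (adjusted p = 0.0891 in edgeR). Hsp70Aa was at 25.4, 12.0 and 56.5 CPM and at 150.3, 299 and 43.3 CPM, with 2.39 (adjusted p = 0.0105 in edgeR), and Hsp70Ab at 46.5, 25.8 and 113 CPM and at 268, 461 and 83.0 CPM, with 2.13 (adjusted p = 0.0125 in edgeR). For both, the third UAS-Antp sample was within the UAS-GFP range. The ratio of the group means was 1.49 for the sum of the copies and 1.80 without Hsp70Bb, and the groups overlapped for both sums. With library totals Hsp70Bb, Hsp70Aa and Hsp70Ab passed as higher (1.84, 3.74 and 3.48, adjusted p = 3.26e-05, 0.000439 and 0.000402 in edgeR), and without the filter on low counts Hsp70Aa and Hsp70Ab did (2.37 and 2.12). Gal4 and UAS vectors commonly carry pieces of an Hsp70 gene, and whether their reads were counted here was not tested.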
